A study of Mus musculus with 16 samples.

Results

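The genes described here are 38 genes of DNA replication and mitosis, read in the cortex of mouse pups at postnatal day P7. They were chosen by gene symbol among the 36930 entries of the deposited RNAseq table. The 19 replication genes are the 6 subunits of the Mcm2-7 helicase with Cdc6, Cdt1, Cdc45, Gins1, Gins2, Mcm10, Pcna, Pola1, Pole, Rrm1, Rrm2, Tyms and Ccne1. The 19 mitosis genes are Mki67, Top2a, Cdk1, Ccna2, Ccnb1, Ccnb2, Aurka, Aurkb, Plk1, Birc5, Bub1, Bub1b, Cenpe, Cenpf, Kif11, Kif20a, Tpx2, Cdc20 and Ube2c. All 38 were detected in every pup and were among the 21183 genes that passed the filter on low values.

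The study sequenced cortical RNA of 16 C57BL6 pups, 8 Avil-ChR2 and 8 ChR2-flfl. All 16 were exposed to blue light for 1 h per day from P1 to P5 and were analyzed at day 7. Avil-ChR2 pups carried Cre under the Advillin promoter, which is active in peripheral sensory neurons, together with the floxed-STOP ChR2-tdTomato construct of the Ai27D line. The study assumes that blue light reaches sensory nerve endings through the skin and mostly activates nociceptors. It does not exclude that some Merkel cells were activated too. ChR2-flfl litter mates carried the floxed construct without Cre, so that no channel is made. Labels do not tie pups to litters. Any difference between the genotypes in the cortex combines light-driven input with carrying the Cre allele and making the ChR2-tdTomato protein, and these cannot be told apart. The genotypes were visible in the RNA. Avil, the gene of the Cre driver, measured 39.7 ± 2.89 CPM (normalized reads scaled to library size; SD, n = 8) in Avil-ChR2 and 1.07 ± 0.199 CPM (SD, n = 8) in ChR2-flfl pups.

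The libraries held 47791532 to 48711134 reads in Avil-ChR2 pups, with a median of 48606820.5. ChR2-flfl libraries held 30549126 to 48707429 reads, with a median of 48442435.5, and the smallest was replicate 3. Pup numbers fell into a first run of 26 to 33 and a second run of 35 to 42, each with 4 pups of either genotype. The runs stood apart in how many entries of the table had reads, with 23914 to 24262 in the first run, apart from ChR2-flfl replicate 3 with 23246, and 23379 to 23583 in the second. The Y-linked genes Eif2s3y, Kdm5d and Uty matched the labelled sex in 15 of 16 pups. Avil-ChR2 replicate 4 is labelled female and held 64.6 CPM of Eif2s3y, where the other labelled females held at most 0.125 CPM. The study's supplement lists that pup as male, and the 3 genes matched the sexes of the supplement in all 16 pups. By its Y-linked RNA the pup is male, and its label is taken to be wrong. Comparisons by sex are given both ways below.

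Cells that divide copy their genome in S phase and segregate it in mitosis. Licensing factors load the Mcm helicase onto origins, Cdc45 and the GINS complex activate it, and polymerases copy the strands on the Pcna clamp. Cyclin-dependent kinase 1, Aurora and polo kinases then drive chromosome condensation and spindle assembly, and the anaphase-promoting complex ends mitosis by degrading cyclins and securin. In the first postnatal week most cortical neurons have left the cycle, and the cells known to divide in and near the cortex are mainly glial progenitors, microglia, endothelial cells and the progenitors of the subventricular zone. In bulk tissue, fewer cycling cells and less RNA per cycling cell cannot be told apart.

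Cell cycle genes are known to be switched on in waves through elements in their promoters. E2F sites are typical of genes of the G1/S wave, and the cell cycle homology region (CHR), often with CCAAT boxes, is typical of genes of the G2/M wave. RefSeq promoter windows of GRCm38.p6, each 300 bases long and reaching 50 bases past the gene start, were at hand for 30 of the 38 genes, as 31 windows. They were searched on either strand for the E2F words TTTGGCGC, TTTCCCGC, TTTGCCGC and TTTCGCGC, for CCAAT and for the CHR word TTTGAA. An E2F word occurred in 7 of 16 replication windows (43.8%) and in 1 of 15 mitosis windows (6.67%), against 2.26% of all 32851 windows. The CHR word occurred in 11 of 15 mitosis windows (73.3%) and in 2 of 16 replication windows (12.5%), against 17.9% of all windows. CCAAT stood in 93.3% of the mitosis and 75% of the replication windows, against 37.4% of all windows. All 11 mitosis and both replication windows with a CHR word also held a CCAAT, a pairing found in 6.95% of all windows. These are letter matches and say nothing about which factors bind in the cortex.

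The 250 bases before the gene start are shown for 4 genes on which the results below turn. Mcm10 had the smallest P-value between genotypes, Mcm6 and Cdk1 varied most closely with the other members, and Top2a is a common marker of mitotic cells. Sequences read 5′ to 3′ in the direction of the gene, and capitals mark the words searched.
Mcm10 (chr2:5012792-5013041, minus strand): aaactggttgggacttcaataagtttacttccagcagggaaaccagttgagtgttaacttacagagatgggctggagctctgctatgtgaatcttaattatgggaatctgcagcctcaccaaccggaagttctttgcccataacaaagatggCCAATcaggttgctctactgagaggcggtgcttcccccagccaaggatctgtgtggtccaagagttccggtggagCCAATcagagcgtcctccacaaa
Mcm6 (chr1:128359706-128359955, minus strand): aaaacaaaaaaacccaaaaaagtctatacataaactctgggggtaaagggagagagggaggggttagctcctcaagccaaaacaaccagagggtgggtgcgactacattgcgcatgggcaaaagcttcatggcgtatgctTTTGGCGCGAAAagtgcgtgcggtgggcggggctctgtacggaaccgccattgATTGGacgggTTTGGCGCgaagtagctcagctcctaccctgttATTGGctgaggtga
Cdk1 (chr10:69352913-69353162, minus strand): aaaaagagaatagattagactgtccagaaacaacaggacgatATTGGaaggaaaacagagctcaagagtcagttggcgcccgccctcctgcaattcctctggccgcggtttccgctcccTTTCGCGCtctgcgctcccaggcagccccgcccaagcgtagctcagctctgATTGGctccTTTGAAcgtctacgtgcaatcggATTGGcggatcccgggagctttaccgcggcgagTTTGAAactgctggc
Top2a (chr11:99024190-99024439, minus strand): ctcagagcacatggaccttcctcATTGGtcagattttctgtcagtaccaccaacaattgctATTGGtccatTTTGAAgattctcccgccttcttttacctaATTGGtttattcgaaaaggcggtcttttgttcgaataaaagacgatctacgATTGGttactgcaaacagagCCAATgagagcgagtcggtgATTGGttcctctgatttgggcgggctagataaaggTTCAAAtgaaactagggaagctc
The Mcm6 stretch held 3 E2F words, of which TTTGGCGC and the reverse of TTTCGCGC overlap, and 2 CCAAT words. The Cdk1 stretch held all kinds, with 1 E2F word, 3 CCAAT and 2 CHR words. The Top2a stretch held 6 CCAAT and 2 CHR words without an E2F word. The Mcm10 stretch held 2 CCAAT words only.

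To compare members with each other, mean CPM were divided by the length of the longest coding transcript of each gene, and levels are given as CPM per kb. Pcna, the sliding clamp of the replication fork, had the highest level at 14.6 ± 0.688 CPM per kb (SD, n = 16). It was followed by Rrm1, the large subunit of ribonucleotide reductase, at 7.49 ± 0.206 CPM per kb, and by Mcm6, a subunit of the replicative helicase, at 5.80 ± 0.396 CPM per kb. The ranges of these 3 genes over the 16 pups did not overlap each other. Rrm2, the small reductase subunit, and Ccne1, the G1/S cyclin E1, followed at 5.76 and 5.48 CPM per kb and did not differ from Mcm6 beyond the larger SD of each neighbouring pair. The other helicase subunits lay between 4.23 for Mcm7 and 2.49 for Mcm2. The lowest levels were those of the helicase activators Mcm10 (0.430) and Gins2 (0.372) and of the licensing factor Cdc6 (0.263 CPM per kb), the last with only 40 to 69 reads per pup.

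The highest mitosis gene was Top2a, topoisomerase II alpha, which untangles sister chromatids, at 4.19 ± 0.397 CPM per kb (SD, n = 16). Ccna2, the S phase and mitotic cyclin A2, followed at 3.46 ± 0.330, and Kif11, the plus-end motor that pushes spindle poles apart, at 3.12 ± 0.194 CPM per kb. Mki67, the gene of the proliferation marker Ki-67, measured 1.82 ± 0.150 CPM per kb, with a transcript of 10061 bases. The lowest mitosis genes were Cenpf (0.697), a large protein of the outer kinetochore, and Birc5 (0.821), the survivin subunit of the passenger complex. Median levels were 2.49 CPM per kb for the replication and 1.40 for the mitosis genes, and 6.42 for the 15539 tested genes with a transcript length. Of the 37 pairs of neighbours in this order, the ranges of 4 pairs stood apart, and the means of 26 pairs differed by less than the larger SD, so that much of the middle order is not resolved. Reads of 7 members (Cdc45, Gins2, Ccna2, Aurka, Plk1, Kif20a and Cdc20) lie in spans that overlap another entry of the table, and how such reads were shared is not stated. Sox2, which lies inside Sox2ot, was listed without reads in all pups.

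**Figure D1:**
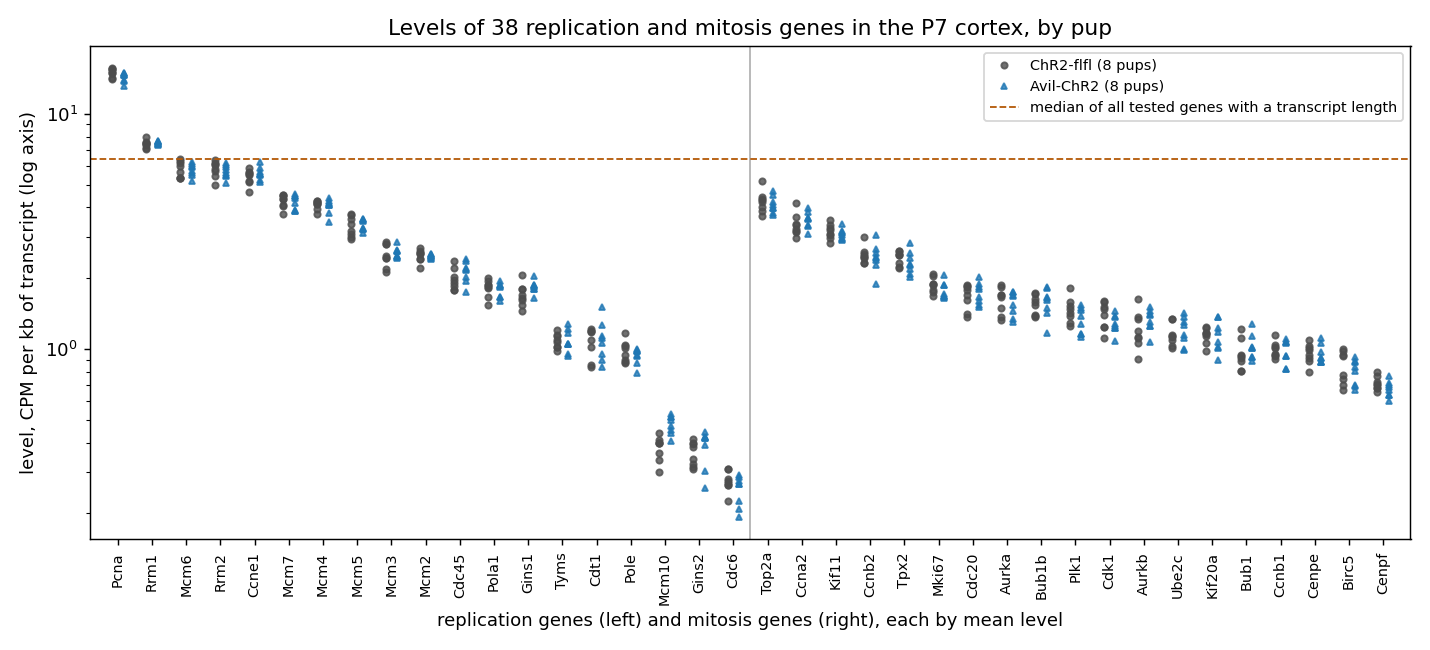
Level of each gene in CPM per kb of transcript (vertical, log axis) in 8 ChR2-flfl pups (grey circles) and 8 Avil-ChR2 pups (blue triangles), with replication genes left and mitosis genes right, and the dashed line at the median of tested genes, 6.42. Pcna and Rrm1 lie above that line in all pups, Mcm10, Gins2 and Cdc6 lie lowest, and the genotypes overlap for every gene.

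To see how far the pups differed at all, the spread within genotypes was set beside the spread that read counting alone would give. The members' median coefficient of variation was 9.49%, and that of counting 5.84%. The ratio had a median of 1.59, and for 8090 genes within the members' range of mean CPM it was 1.73. Rrm1 varied by 2.80% where counting gives 2.67%, and Mcm10 by 10.2% where counting gives 10.3%. Hence the pups differed in Rrm1 and Mcm10 within genotypes by about what counting gives. Top2a varied by 9.65% over a counting spread of 3.13%, and Mki67 by 7.94% over 3.42%. The spread was under 1.5 times the counting spread for 17 of the 38 genes and under 2 times for 33.

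The main comparison of the study asked whether early nociceptive stimulation changed gene expression in the cortex. None of the 38 genes differed between Avil-ChR2 and ChR2-flfl pups at an adjusted P under 0.05 (limma, Benjamini-Hochberg over 21183 genes), at which 2 genes in all were called (0.00944%). At an unadjusted P under 0.05, 1 member was higher in Avil-ChR2 (Mcm10), against 1.95% of all genes, and 0 members were lower, against 3.46% of all genes (5.41% in either direction). The median log2 difference, Avil-ChR2 minus ChR2-flfl, was 0.00 for the replication genes, -0.03 for the mitosis genes and 0.00 for all tested genes. The genotypes overlapped for all 38 members, and 0.0283% of all tested genes had groups that did not overlap. The 95% intervals reached no further than 0.25 on the log2 scale in either direction for 27 members and no further than 0.5 for 37.

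**Figure D2:**
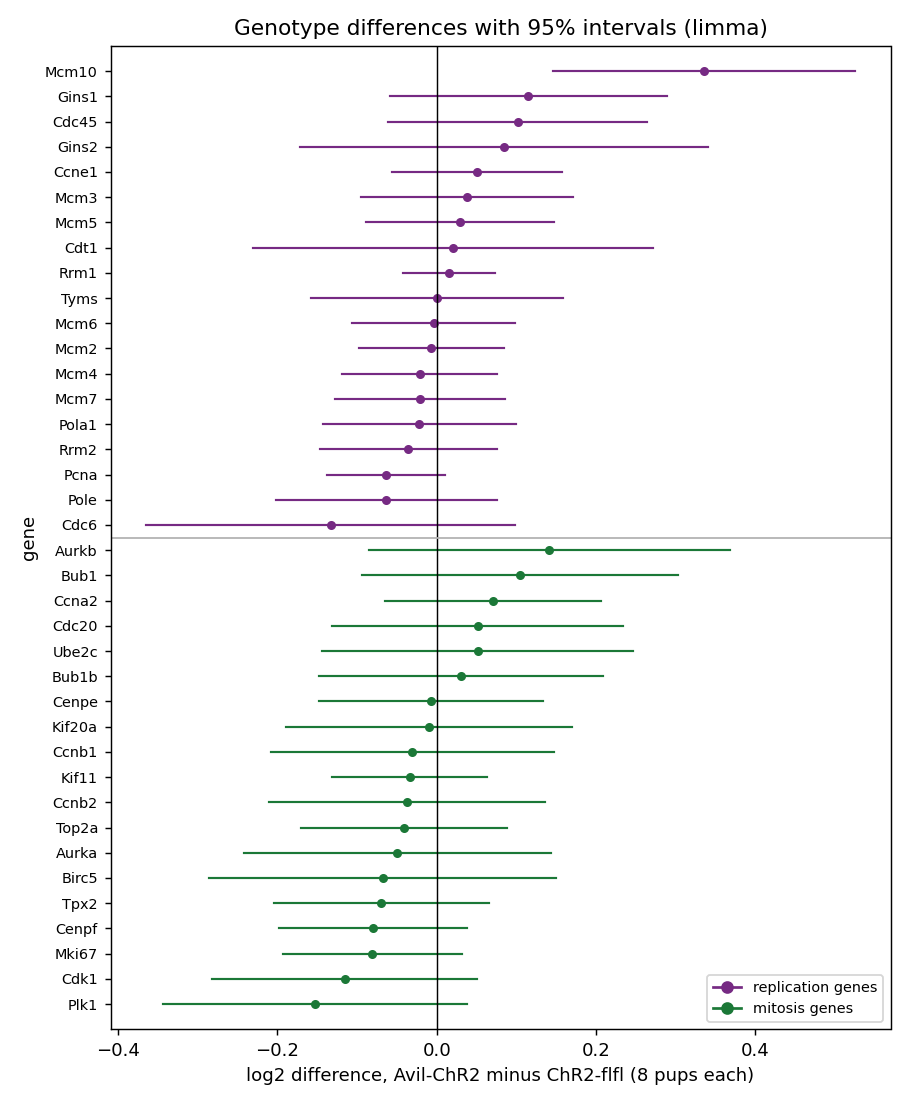
Log2 difference between Avil-ChR2 and ChR2-flfl pups (horizontal, points, n = 8 each) with its 95% interval (lines) for 19 replication genes (purple) and 19 mitosis genes (green). The interval of Mcm10 lies to the right of 0, from 0.15 to 0.53, and those of the other 37 genes include 0.

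Among the 6 subunits of the Mcm helicase and its loaders Cdc6 and Cdt1, 3 of 8 point estimates were above 0 and 5 below, with a median of -0.01. Mcm6 measured 23.1 to 27.9 CPM in ChR2-flfl pups (median 25.4) and 22.6 to 27.3 CPM in Avil-ChR2 pups (median 25.4). The groups covered nearly the same range, and the log2 difference was 0.00 with a 95% interval from -0.11 to 0.10 (limma adjusted P = 0.997, exact permutation P = 0.938). Cdc6, the loader that is lowest in level, had the lowest estimate of the replication genes, -0.13 ± 0.11 (SE, limma adjusted P = 0.953).

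The 4 helicase activators all had estimates above 0, as had 10885 of the 21183 tested genes. Mcm10, which is required to start unwinding, measured 1.46 to 2.14 CPM in ChR2-flfl pups (median 1.93) and 1.98 to 2.58 CPM in Avil-ChR2 pups (median 2.36). In 7 of 8 Avil-ChR2 pups Mcm10 was above the highest ChR2-flfl pup, and Avil-ChR2 replicate 2 lay among the controls. The log2 difference was 0.34 ± 0.09 (SE), 1.26-fold, with a 95% interval from 0.15 to 0.53. The exact two-sided permutation test over 12870 splits gave P = 0.000622 and limma P = 0.00148, which after adjustment over all genes was 0.756. These values rest on 51 to 126 reads per pup. The difference was 0.37 among pups 26 to 33 and 0.31 among pups 35 to 42. Gins1 (0.12 ± 0.08, SE), Cdc45 (0.10 ± 0.08) and Gins2 (0.08 ± 0.12) had smaller estimates with intervals that include 0. Under the alternatives other than leaving out single pups, the Cdc45 estimate ran from 0.00481 to 0.198. Cdc45, which travels with the helicase, measured 3.82 to 5.09 CPM in ChR2-flfl (median 4.14) and 3.74 to 5.19 CPM in Avil-ChR2 pups (median 4.66), with groups overlapping over most of their range (limma adjusted P = 0.945, exact permutation P = 0.198).

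Among polymerases, clamp and nucleotide enzymes, Pcna measured 21.3 to 23.7 CPM in ChR2-flfl (median 22.9) and 19.9 to 22.7 CPM in Avil-ChR2 pups (median 22.2), and 7 of 8 Avil-ChR2 pups lay below the ChR2-flfl mean. The log2 difference of -0.06 ± 0.04 (SE) did not pass the test (limma adjusted P = 0.934, exact permutation P = 0.0620). Pola1 and Pole, catalytic subunits of polymerases alpha and epsilon, had estimates of -0.02 and -0.06. Rrm1 measured 28.2 to 31.7 CPM in ChR2-flfl (median 29.9) and 29.4 to 30.6 CPM in Avil-ChR2 pups (median 30.1), so that the Avil-ChR2 pups all lay inside the range of the controls. Its interval, from -0.04 to 0.07, was the narrowest of the members (limma adjusted P = 0.985, exact permutation P = 0.461). Tyms, thymidylate synthase, and Rrm2 had estimates of 0.00 and -0.04, and Ccne1 one of 0.05.

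Of the 19 mitosis genes, 13 estimates were below 0 and 6 above, where 10298 of the 21183 tested genes were below 0 and 10885 above. Members were measured in the same pups, so that their signs are not independent. Mki67 measured 16.9 to 21.005 CPM in ChR2-flfl (median 18.9) and 16.6 to 20.9 CPM in Avil-ChR2 pups (median 17.1). It was below the ChR2-flfl mean in 7 of 8 Avil-ChR2 pups and below the lowest control in 4, whereas Avil-ChR2 replicate 2 lay near the highest control. The log2 difference was -0.08 with a 95% interval from -0.19 to 0.03 (limma adjusted P = 0.945, exact permutation P = 0.167). Top2a measured 19.1 to 27.1 CPM in ChR2-flfl (median 22.2) and 19.4 to 24.5 CPM in Avil-ChR2 pups (median 21.1), a log2 difference of -0.04 with an interval from -0.17 to 0.09 (limma adjusted P = 0.982, exact permutation P = 0.557). The highest value, 27.1 CPM, was that of ChR2-flfl replicate 6.

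Cdk1, the kinase that triggers mitosis, measured 4.85 to 6.97 CPM in ChR2-flfl (median 6.27) and 4.73 to 6.32 CPM in Avil-ChR2 pups (median 5.53). In 7 of 8 Avil-ChR2 pups it lay below the ChR2-flfl mean, and the log2 difference of -0.12 ± 0.08 (SE) did not pass the test (limma adjusted P = 0.945, exact permutation P = 0.179). Ccna2, a cyclin partner of Cdk1, measured 8.75 to 12.3 CPM in ChR2-flfl (median 9.78) and 9.14 to 11.7 CPM in Avil-ChR2 pups (median 10.6), with the estimate on the other side of 0 at 0.07 ± 0.06 (SE, limma adjusted P = 0.954, exact permutation P = 0.308). Without single pups the Ccna2 estimate ran from 0.0435 to 0.115. All Avil-ChR2 values of Ccna2 lay within the range of the controls. The B-type cyclins Ccnb1 and Ccnb2 had estimates of -0.03 and -0.04.

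Plk1, the polo-like kinase, had the smallest P-value among the mitosis genes. It measured 2.76 to 3.98 CPM in ChR2-flfl (median 3.19) and 2.47 to 3.40 CPM in Avil-ChR2 pups (median 2.92), with 3 Avil-ChR2 pups below the lowest control. The log2 difference was -0.15 ± 0.09 (SE; limma adjusted P = 0.941, exact permutation P = 0.104). Of its partners, Aurkb and Birc5 belong to the same passenger complex and had estimates of opposite sign, 0.14 ± 0.11 (SE) and -0.07 ± 0.10 (SE). Birc5 measured 2.23 to 3.32 CPM in ChR2-flfl (median 2.86) and 2.22 to 3.09 CPM in Avil-ChR2 pups (median 2.74), with overlapping groups (limma adjusted P = 0.982, exact permutation P = 0.520). Kif11 measured 13.6 to 16.98 CPM in ChR2-flfl (median 15.1) and 13.95 to 16.4 CPM in Avil-ChR2 pups (median 14.9; limma adjusted P = 0.980, exact permutation P = 0.459), all within the range of the controls. The kinetochore and checkpoint genes Bub1, Bub1b, Cenpe and Cenpf had estimates between -0.08 and 0.10. Cdc20 and Ube2c, activator and ubiquitin carrier of the anaphase-promoting complex, each had an estimate of 0.05.

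**Figure D3:**
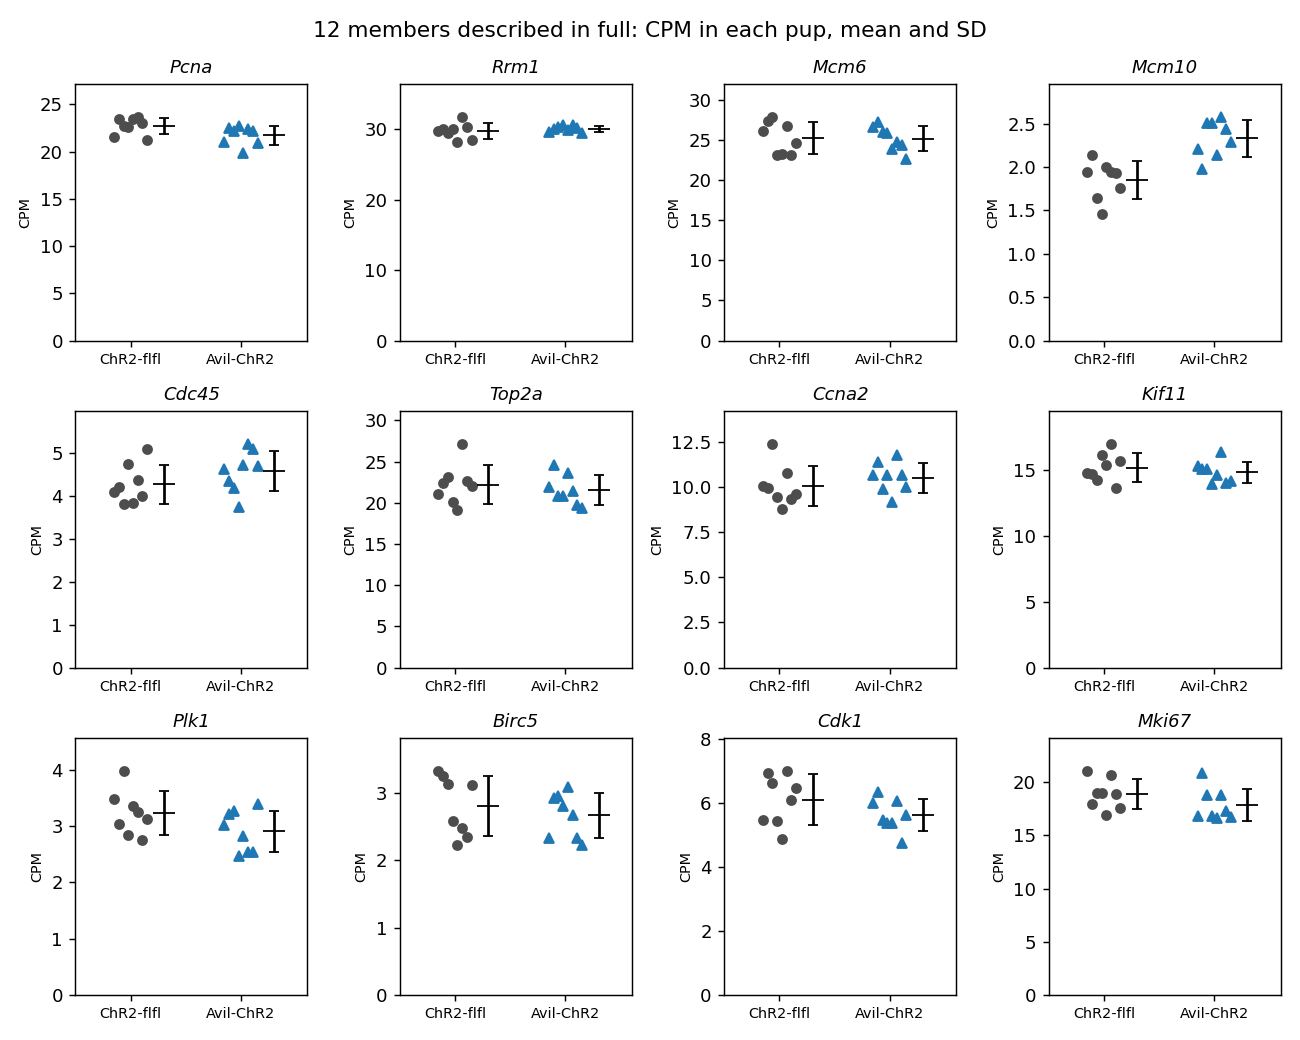
CPM (vertical, from 0) of 12 genes in 8 ChR2-flfl pups (grey circles) and 8 Avil-ChR2 pups (blue triangles), with the mean and SD of each group in black. Mcm10 is above the highest control in 7 of 8 Avil-ChR2 pups, and the groups of the other 11 genes overlap more widely.

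A list of 51 other genes of the cell cycle was examined next to the members. None had an adjusted P under 0.05 between genotypes, and at an unadjusted P under 0.05 there were 3 lower and 0 higher in Avil-ChR2, against 3.46% of all genes that were lower and 1.95% that were higher. The 3 were Cdca3, a trigger of mitotic entry (log2 difference -0.25 ± 0.09, SE), Uhrf1, which maintains DNA methylation at replication (-0.20 ± 0.08), and Ttk, a checkpoint kinase (-0.23 ± 0.10; limma adjusted P = 0.825, 0.841 and 0.850). The median over the 51 genes was -0.02. None of the 11 cell cycle inhibitors and pocket proteins had an unadjusted P under 0.05, with differences between -0.10 and 0.07.

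Between the runs of pup numbers, none of the 38 genes had an adjusted P under 0.05, at which 26 genes in all were called (0.123%). At an unadjusted P under 0.05, 2 members were lower in the second run, against 6.74% of all genes that were lower (12.5% in either direction). Both were subunits of the Mcm helicase. Mcm6 measured 26.3 ± 1.47 CPM (SD, n = 8) in pups 26 to 33 and 24.2 ± 1.29 CPM in pups 35 to 42, a log2 difference of -0.12 ± 0.04 (SE; limma adjusted P = 0.221), and ranges from 23.1 to 27.9 and from 22.6 to 26.8 CPM overlapped. Mcm4 measured 15.1 ± 0.313 and 14.1 ± 0.939 CPM (SD, n = 8 each), a log2 difference of -0.10 ± 0.04 (SE; limma adjusted P = 0.325). Birc5 had the smallest P of the mitosis genes, at 2.91 ± 0.336 and 2.56 ± 0.366 CPM (SD, n = 8 each; limma adjusted P = 0.441). The runs overlapped for all 38 genes, and 0.142% of all tested genes had runs that did not overlap. Of the other cell cycle genes, 7 of 51 were lower in the second run at an unadjusted P under 0.05, set against the 6.74% of all genes, and 0 higher, against 5.76% of all genes, the smallest P being those of Pold1 (-0.30 ± 0.10, SE), E2f8 (-0.27 ± 0.10) and Cdca8 (-0.14 ± 0.05; limma adjusted P = 0.210, 0.280 and 0.310). Of the 11 inhibitors and pocket proteins, Cdkn2a had an unadjusted P under 0.05 (-1.05, limma adjusted P = 0.345), at a mean of only 0.120 CPM.

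Some markers of other cells had an unadjusted P under 0.05 between the runs, and none of those given here had an adjusted P under 0.05 (limma). These are set against 6.74% of all genes that were lower and 5.76% that were higher (12.5% in either direction). Nothing is read from a single gene in lists this short. The summed level of 6 markers of oligodendrocyte precursors was 255 ± 13.8 CPM (SD, n = 8) in the first and 237 ± 7.95 CPM in the second run, and 3 of the 5 that passed the filter (Olig1, Olig2 and Sox10) had estimates below 0 with an unadjusted P under 0.05, the lowest adjusted P being 0.0602. Their most abundant gene, Pdgfra, had a log2 difference of -0.01, and Gpr17, which lies inside Lims2, was listed without reads. The 6 erythroid genes summed to 330 ± 62.5 and 258 ± 24.8 CPM (SD, n = 8 each), with 4 of 5 below 0 at an unadjusted P under 0.05 (lowest adjusted P = 0.0617) and Hbb-bs the most abundant. All 6 markers of subventricular neuroblasts had estimates below 0, as had 10597 of the 21183 tested genes. An unadjusted P under 0.05 was found for Igfbpl1 (log2 difference -0.51, limma adjusted P = 0.159) and Dlx2 (-0.33, limma adjusted P = 0.216). In the other lists, an unadjusted P under 0.05 was found for Prox1, a dentate gene with an estimate above 0 (0.24, limma adjusted P = 0.109), and for Pax6 of radial glia (-0.22), Aldh1l1 of astrocytes (-0.10), Tubb3 of neurons (-0.11) and Cbln1 of cerebellar granule precursors (-0.18), with limma adjusted P from 0.175 to 0.279. In each of these lists the estimates of the tested markers lay on both sides of 0. The part of these cells, and of the lower number of entries with reads in the second run, in the values of Mcm6 and Mcm4 was not tested. The genotype difference did not depend detectably on the run. At the interaction term, 0 genes in all (0%) had an adjusted P under 0.05, and 0 members had an unadjusted P under 0.05 against 3.04% of all genes.

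By labelled sex, 0 of the 38 genes had an adjusted P under 0.05 (0.0425% of all genes, 9 in number) and 0 had an unadjusted P under 0.05 (4.46% of all genes). The labels place Avil-ChR2 replicate 4 among the females, against its Y-linked RNA. With the sexes of the supplement, Pole and Ccnb2 were lower in females at an unadjusted P under 0.05 (log2 differences of -0.14 and -0.18), and without Avil-ChR2 replicate 4 Pole alone was (-0.14), in each case with adjusted P-values of 1.00. The 4.46% holds for the labelled sexes. The share of all genes is not given for the other settings, so nothing is read from the counts of members there. The labelled sexes overlapped for all members, and 0.0189% of all genes had sexes that did not overlap. At the interaction of genotype and sex, 0 genes (0%) had an adjusted P under 0.05, and 4.31% of all genes had an unadjusted P under 0.05. Ccna2 was the only member with an unadjusted P under 0.05 at the labelled sexes (-0.28, limma adjusted P = 0.993). With the sexes of the supplement there were 2, Ccna2 (-0.28) and Rrm2 (-0.22), with a lowest limma adjusted P of 0.799, and without Avil-ChR2 replicate 4 there was Ccna2 (-0.30, limma adjusted P = 0.987). The 4.31% holds for the labelled sexes, and the share of all genes at these other settings is not given. Ccna2 measured 10.6 ± 1.27 CPM (SD, n = 4) in labelled female and 9.43 ± 0.544 CPM (n = 4) in male ChR2-flfl pups, and 10.2 ± 0.836 CPM (n = 5) in labelled female and 11.02 ± 0.624 CPM (n = 3) in labelled male Avil-ChR2 pups. The labelled female Avil-ChR2 pups include replicate 4, with 10.6 CPM.

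Finally, it was asked whether genes of the same machinery rise and fall together from pup to pup. Correlations are over the 16 pups on log2 values after subtracting the genotype means, and they share library and scaling. Over the 703 pairs of members the median r was 0.119, and 65.3% of the pairs were above 0, against 49.6% of all pairs of genes with a mean log2 of at least 0. Pairs among the replication genes had a median of 0.118, pairs among the mitosis genes 0.151 and pairs across these groups 0.116, whereas those pairs of all genes had a median of -0.00334. The share of pairs above 0.5 was 7.4% among members and 7.11% among all genes. For the 19 members with more than 305.25 reads in the median pup the median r was 0.289, and for the 19 below it was 0.0194. The sets hold different genes, and the part of read depth in this difference was not tested.

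Mcm6 and Cdk1 had the highest mean r with the other members, 0.275 and 0.269, followed by Top2a with 0.259 and Tpx2, a spindle assembly factor, with 0.240. Cdc45 (-0.0908), Gins2 (-0.0740) and Plk1 (-0.0151) had the lowest. The closest pairs were Top2a with Cdk1 (r = 0.748), Cdk1 with Tpx2 (0.746) and Mcm2 with Mcm10 (0.744). The pair Mcm6 and Ccna2, a replication and a mitosis gene, reached 0.684. Cyclin B2 and polo-like kinase 1, both mitotic, went in opposite directions (Ccnb2 with Plk1, r = -0.668). These pairs are the extremes of 703 and were picked for their r.

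**Figure D4:**
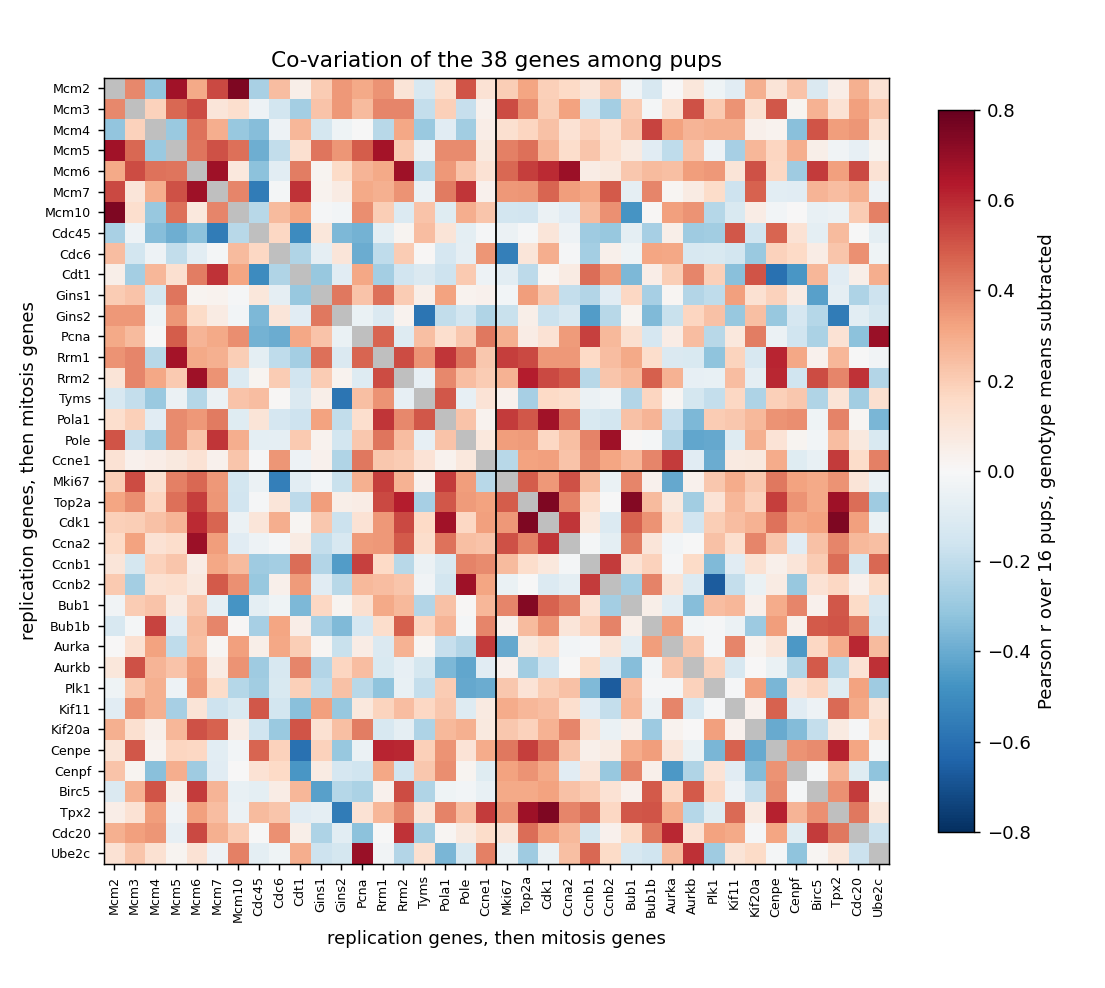
Pearson r over 16 pups for every pair of the 38 genes (color, red above and blue below 0), genotype means subtracted, with replication genes first and mitosis genes second along both axes. Red outnumbers blue, as 65.3% of the pairs are above 0 (49.6% over all genes with a mean log2 of at least 0), and the rows of Cdc45, Gins2 and Plk1 are paler or bluer than those of Mcm6, Top2a and Cdk1.

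A further 6 pairs set by role were correlated on the log2 values themselves, without subtracting the genotype means, so that their r differ from those in the map of all pairs. Top2a with Mcm6 had r = 0.55 over 16 pups (rho = 0.58, permutation P = 0.0272 and 0.0206, adjusted over 6 pairs 0.137 and 0.124), and r = 0.47 without the 2 pups farthest from the median of Top2a. Within the runs it was 0.76 and 0.72. Mki67 with Top2a had r = 0.50 (rho = 0.39, permutation P = 0.0456 and 0.136, adjusted 0.137 and 0.272), 0.55 without the 2 farthest pups, and 0.29 and 0.71 within the runs. Mcm5 with Pcna, Mki67 with Mcm5, Mcm2 with Mcm6 and Ccnb1 with Cdk1 had r of 0.36, 0.32, 0.30 and 0.12 (adjusted permutation P from 0.319 to 0.659). None of the 6 passed the adjusted threshold. Mcm2 with Mcm6, subunits of the same ring, fell to -0.07 without the 2 farthest pups, while within the runs r was 0.68 and 0.54.

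Each pup was then given a replication and a mitosis score, the mean z-score of its 19 genes, each centred on the mean of the pup's genotype. The scores had r = 0.59 and rho = 0.53 over 16 pups, 0.464 without the 2 pups farthest from the median replication score, and 0.447 and 0.635 within the runs. ChR2-flfl replicates 6 and 2 had the highest overall scores (0.652 and 0.532), with 29 and 30 of 38 genes above the mean of their genotype. Avil-ChR2 replicate 6 followed with 28 genes. Avil-ChR2 replicate 8 (-0.541) and ChR2-flfl replicate 4 (-0.529) had the lowest scores, with 9 and 11 genes above. The differences were small in size. The mean log2 level of the mitosis genes ran from 2.32 to 2.51 over the pups, with group means of 2.44 ± 0.0617 in ChR2-flfl and 2.42 ± 0.0731 in Avil-ChR2 (SD, n = 8 each). That of the replication genes had group means of 2.73 ± 0.0539 and 2.75 ± 0.0307 (SD, n = 8 each).

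**Figure D5:**
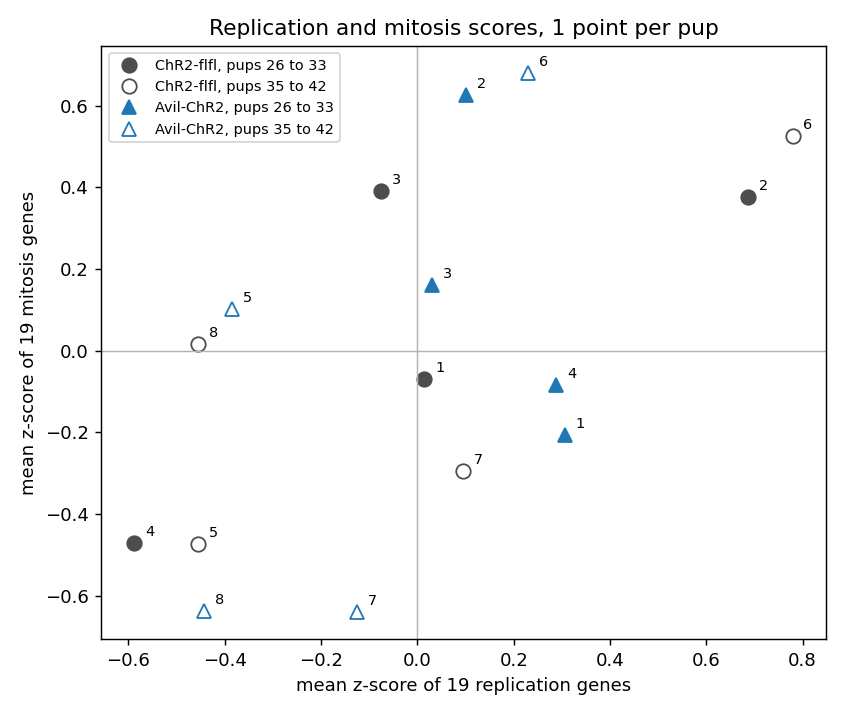
Mean z-score, centred within each genotype, of the 19 replication genes (horizontal) and of the 19 mitosis genes (vertical), 1 point per pup with its replicate number, for ChR2-flfl (grey circles) and Avil-ChR2 (blue triangles), filled for pups 26 to 33 and open for pups 35 to 42. The points run from lower left to upper right (r = 0.59) with pups of both runs along the way, and the genotypes share the same center by construction.

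The pup score went with the same score over the 51 other cell cycle genes, which were not used for it (r = 0.839, rho = 0.788, 0.746 without the 2 farthest pups, 0.694 and 0.911 within the runs). Those genes summed to 342 ± 7.96 CPM (SD, n = 16), led by the origin factor Orc6 with 27.7 CPM. With the cell cycle inhibitors and pocket proteins (243 ± 5.35 CPM, led by Rb1) r was 0.303. The r with the number of reads was -0.117, and that with the number of entries with reads was 0.0937, with -0.175 and -0.579 within the runs.

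Marker lists of cell types that can divide, or that neighbouring tissue could add, gave r with the pup score between -0.199 and 0.253, and for all 10 lists given here r had opposite signs in the 2 runs, from -0.496 to 0.655 in the first and from -0.672 to 0.433 in the second. Radial glia and intermediate progenitors summed to 453 ± 22.4 CPM (SD, n = 16), mostly from Fabp7 (356 CPM), with r = 0.208 that was 0.655 in the first run and -0.218 in the second. The intermediate progenitor markers Eomes and Neurog2 had means of only 0.197 and 0.0485 CPM and did not pass the filter. The r of this list rests on 6 of its 9 markers and says nothing about intermediate progenitors. Oligodendrocyte precursors (246 ± 14.05 CPM) gave 0.235, astrocytes (839 ± 57.5 CPM, led by Slc1a3) 0.178, and subventricular neuroblasts (1070 ± 77.2 CPM, nearly all Dcx) 0.253. Endothelial cells (206 ± 12.6 CPM, led by Kdr) gave -0.0932. Neurons, which made up the largest sum (3957 ± 95.7 CPM, led by Tubb3), gave 0.157. Lists of hippocampal dentate (42.8 ± 2.53 CPM, led by Prox1, r = -0.199), cerebellar granule precursors (35.4 ± 2.92 CPM, led by Cbln1, r = -0.0280), choroid plexus (1.46 ± 0.401 CPM, led by Kl, r = -0.00163) and erythroid genes (294 ± 58.8 CPM, r = 0.122, which was 0.276 in the first run and -0.672 in the second) completed the set. Of the cerebellar list, Atoh1, Gabra6 and Pax2 did not pass the filter, and its r rests on 3 of 6 markers, with Cbln1 (24.5 CPM) and Zic1 (10.6 CPM) giving most of the sum. Of the choroid plexus list, Folr1, Otx2 and Kcnj13 did not pass, and its r rests on 2 of 5. Neither sum is read as a measure of these tissues. Sox2, Gpr17, P2ry12, Kcnj13 and Alas2 were listed without reads in all pups, and each lies inside another entry of the table, so that these markers checked nothing.

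Outside the members, the 10 genes whose pattern over the 16 pups was most like the pup score were Pbk (r = 0.816), Chst11 (0.802), Naaladl1 (0.768), Rangrf (0.766), Zfp37 (0.764), Rpusd4 (0.751), Zfp429 (0.743), Nrsn2 (0.742), H3f3c (0.742) and Gm8898 (0.741). Pbk, a mitotic kinase, is also among the 51 other cell cycle genes. These 10 are the highest of all genes with a mean log2 of at least 0 and were chosen for their r.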

How the data were processed

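Cortices of 16 pups were sequenced from stranded mRNA libraries. After adapter trimming the authors mapped reads no shorter than 50 bp to mm10 in SeqMan NGen. The authors then scaled gene counts from ArrayStar by TMM factors, for which they used edgeR. The deposited values are CPM on a linear scale, 1 column per pup, and whether counting used the strand is not stated. Reads per gene were worked out from the value of 1 read in each pup. The libraries had no molecular identifiers.

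Log2 CPM was floored at -5, which also replaced empty values, and genes above -5 in at least 12 of 16 pups were kept. Genotype, pup-number run and labelled sex were compared with limma 3.58.1 in R 4.3.3 (lmFit, eBayes with trend), Benjamini-Hochberg adjusted over 21183 genes, with genotype as covariate for run and sex. The fit was tested on simulated data. Single genes were compared with two-sided exact permutation tests, pairs with 100000 permutations. Transcript lengths came from GENCODE M21.

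The members and gene lists were chosen with earlier results of these data known. Genes described in full were, per group, the 3 with the highest level, the smallest P by genotype and run, the highest and lowest mean r, and Mki67 and Top2a. Alternatives were other filters, pseudocounts, scalings and covariates and leaving out each pup. Leaving out Avil-ChR2 replicate 4 from the sex comparisons, and the sexes of the supplement in the interaction, were chosen after seeing the data. The microglia marker list is not reported here.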

Additional observations from a re-analysis of the deposited data

Results flagged for a closer look

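In 76 groups of 8 pups (38 genes, 2 genotypes), 2 single pups stood apart from the rest of their group by more than Dixon's 95% critical value, and chance flags about 1 in 20 groups. Mcm3, a subunit of the replicative helicase, measured 8.67 CPM in Avil-ChR2 replicate 2, where the next highest pup of that genotype had 7.97 CPM, and on the log2 scale this gap took 0.529 of the group's range. Ccnb2, cyclin B2, measured 4.59 CPM in ChR2-flfl replicate 7, where the next highest had 3.96 CPM, a gap of 0.580 of the range on the log2 scale. Neither gene differed between genotypes, with limma adjusted P = 0.985 and 0.986.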

How the results depend on the processing

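Under all 28 alternatives 0 members had an adjusted P under 0.05 between genotypes, and Mcm10 kept its direction, with log2 differences from 0.22 to 0.37 and adjusted P from 0.432 upward. Leaving out 1 pup in turn, members with an unadjusted P under 0.05 numbered 1 to 2, and the medians ran from -0.02 to 0.02 for the replication and from -0.05 to 0.00 for the mitosis genes. The genes called over the whole table by genotype numbered 1 with median centring, with the replicate block, among pups 26 to 33 and among pups 35 to 42, 3 with the pup-number run as a covariate, and 1 to 2 without single pups. Directions changed for genes with differences near 0. Mcm6 was 0.0221 among pups 26 to 33 and -0.0219 to 0.0179 without single pups, Top2a 0.0216 among pups 26 to 33 and -0.0710 to 0.000621 without single pups, and Birc5 0.0219 among pups 35 to 42. The cause was not tested. Genes called between runs numbered 5 without a filter and 16 with labelled sex as a covariate, and 7 (without Avil-ChR2 replicate 1) to 123 (without ChR2-flfl replicate 4) without single pups, with 0 members in each. The median r among members ran from 0.0984 to 0.158. Same-numbered pups did not deviate together (r from -0.344 to 0.389, 3 of 8 over 0.1, own number best for 1). No pairing by number was seen, but such r cannot exclude a shared litter or handling. Under the replicate block Mcm10 kept 0.34 (limma adjusted P = 0.914). A block for the run comparison was not run, since replicate numbers 1 to 4 and 5 to 8 are the runs. Reads of 40 to 126 per pup limit Cdc6, Gins1, Gins2 and Mcm10.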
